A study of Drosophila melanogaster with 9 samples.

Results

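H3K27me3 and H3K36me3 were compared along the chromosome arms of *Drosophila* S2 cells. S2 is an established cell line of embryonic origin that grows in culture. Exponentially growing, untreated S2 cells were immunoprecipitated with an antibody against either mark. Each antibody gave 1 library, and these are 2 of the 9 libraries used here. The others were S2 H3K4me3, S2 RNA polymerase II (Pol II), S2 RNA-seq and 4 ChIP-seq libraries of *bam* mutant testis. Those testes were pooled from flies carrying the alleles bam1 and bam114-97, and they are enriched in undifferentiated germ cells but still hold somatic cells. With 1 library per target there was no replicate and no test between conditions, and every interval covers counting error only. The dm3 sequences of 2L, 2R, 3L, 3R, of arm 4 and of X, 120 Mb in all, were cut into 240732 tiles of 500 bp. Density is the number of reads per kb per 1000000 kept reads of a library (RPM per kb), and a tile was counted as marked at 14 or more. By the study's rule this is the lowest density with a Poisson p under 0.05, for a library of 1000000 reads placed at random and a window of 1 kb. An H3K27me3 run was a series of at least 10 adjacent marked tiles. There were 343 runs with 686 edges.

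H3K27me3 is placed by the Polycomb repressive complex PRC2, whose catalytic subunit in flies is E(z), and it covers silent developmental genes in broad domains. H3K36me3 is placed by Set2, which travels with elongating Pol II, so the mark lies over the bodies of transcribed genes, while H3K4me3 lies at their starts. In biochemical work PRC2 is less active on nucleosomes that already carry methylated H3K36. Where the domains of the 2 marks end, and whether they meet, is the question that the comparison addresses.

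With identical reads limited to 3, the S2 H3K27me3 library held 2779641 reads and the S2 H3K36me3 library 3013863. The arms held 96.1% and 96.8% of them. At this depth a marked tile had at least 20 H3K27me3 or 22 H3K36me3 reads. The median tile held 8 H3K27me3 reads (5.76 RPM per kb) but only 2 H3K36me3 reads (1.33 RPM per kb), so H3K36me3 was the more concentrated of the marks. An even spread over 120 Mb would give 8.33 RPM per kb. No read of any S2 ChIP-seq library fell in 10028 tiles (4.17%). No input or H3 library was used, so copy number and mappability remain in the densities. S2 identity was not checked against marker genes, since genes were not placed on dm3 here.

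The marks seldom shared a tile. H3K27me3 marked 47861 tiles (19.9%) and H3K36me3 marked 38775 (16.1%), but both marked only 896 (0.372% of all tiles). The product of both shares gives 7709 tiles, and the observed count was 0.116 of it (0.109 to 0.124, exact Poisson interval). Tiles with both were 2.31% of the H3K36me3 tiles (2.17 to 2.47, Wilson interval) and 1.87% of the H3K27me3 tiles (1.75 to 2.00). Neither mark reached the threshold in 154992 tiles (64.4%). Spearman's rho between the densities was -0.25 over all 240732 tiles and -0.38 over the 230704 tiles with a read. Both values are descriptions over tiles that share libraries, depth and mappability.

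**Figure D1:**
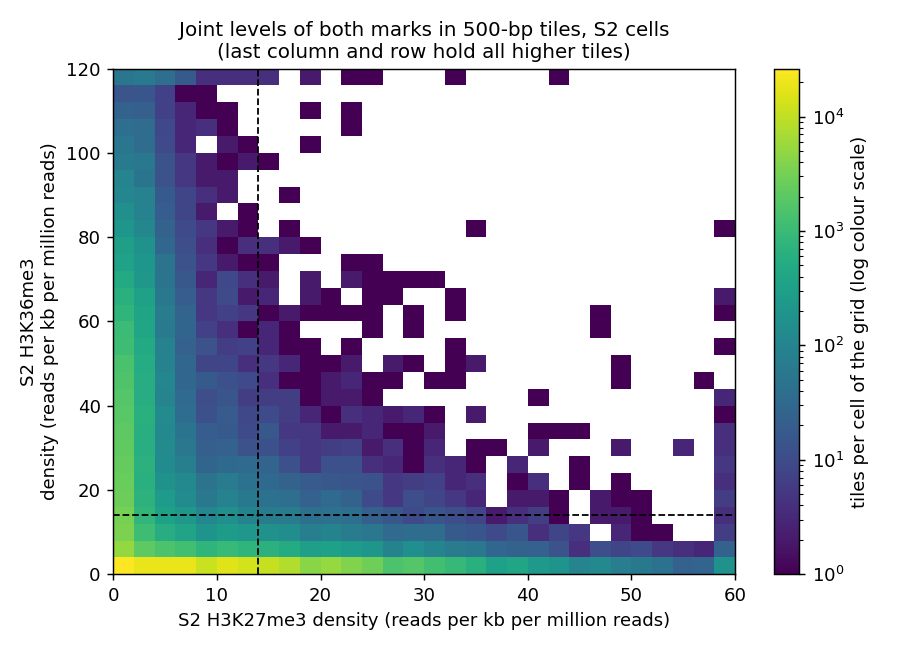
Each cell of the grid counts 500-bp tiles by S2 H3K27me3 density (x axis) and S2 H3K36me3 density (y axis), in reads per kb per 1000000 reads, on a log colour scale; dashed lines are at 14. Tiles with no read in any S2 ChIP-seq library are left out. The tiles lie along the axes, and the upper right quadrant holds 896 of the 230704 tiles shown.

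The share of tiles marked by H3K36me3 had already dropped well below the H3K27me3 threshold. The 10028 tiles with no read in any S2 ChIP-seq library were left out of these bins. The share was 41.2% of the 61717 remaining tiles with H3K27me3 under 2 RPM per kb, and 28.1% of those from 2 to 4. It was 8.39% from 4 to 6, 4.00% from 6 to 8 and 2.56% from 8 to 10. Across the H3K27me3 threshold the share hardly moved, with 2.06% from 10 to 14 and 1.73% from 14 to 20. At 30 RPM per kb or more of H3K27me3 it was 2.89%, somewhat above the bins beneath it. The median H3K36me3 density was 7.96 RPM per kb in the lowest H3K27me3 bin and 1.33 in every bin from 4 upward, which is 2 reads in a tile.

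Seen from the other mark, the decline was gradual. Tiles with no read in any S2 ChIP-seq library were again left out. H3K27me3 marked 26.3% of the 140444 remaining tiles with H3K36me3 under 2 RPM per kb, 20.7% from 4 to 6 and 12.8% from 8 to 10. It marked 5.62% from 14 to 20, 3.14% from 20 to 30 and 1.04% of the 23295 tiles at 30 or more. Tiles with H3K36me3 alone had a median H3K27me3 density of 1.44 RPM per kb. In tiles with reads but neither mark it was 5.76 RPM per kb. Tiles with H3K27me3 alone had a median H3K36me3 density of 1.33 RPM per kb, the same as in tiles with neither. The means differed, at 1.62 RPM per kb in tiles with H3K27me3 alone and 2.19 in tiles with neither, and 50.4% and 55.9% of these tiles were at 1 RPM per kb or more. H3K36me3 tiles thus lay well below the H3K27me3 level of unmarked chromatin, and H3K27me3 tiles slightly below its mean H3K36me3 level.

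**Figure D2:**
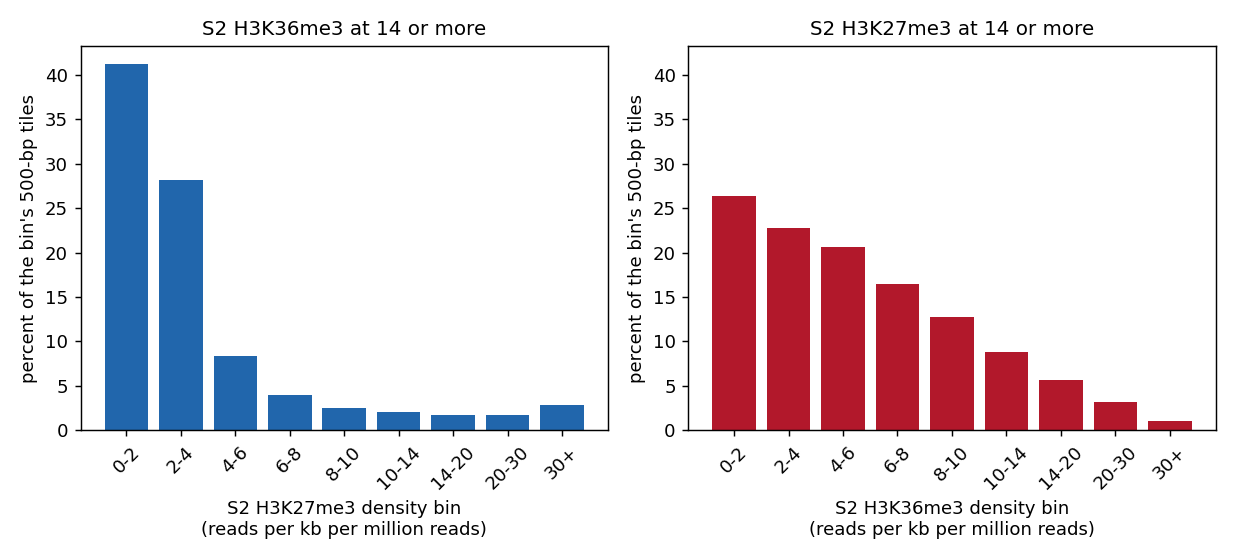
Bars give the percent of 500-bp tiles with S2 H3K36me3 at 14 or more RPM per kb in bins of S2 H3K27me3 density (left) and the reverse (right). Tiles with no read in any S2 ChIP-seq library are left out. The left bars drop from 41.2% to 8.39% within the first 3 bins, and the right bars descend stepwise from 26.3% to 1.04%.

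The tiles also separated in the other S2 libraries. Of the tiles with H3K36me3 alone, 62.7% had an RNA-seq density of 14 or more RPM per kb, 24.0% were marked by H3K4me3 and 29.4% by Pol II. For the tiles with H3K27me3 alone these shares were 0.407%, 0.170% and 1.10%. Over all tiles, 12.3% were at 14 or more in RNA-seq, 7.46% were marked by H3K4me3 and 11.9% by Pol II. The median RNA-seq density was 22.8 RPM per kb over the former tiles and 0 over the latter. Tiles with both marks lay between, with 21.5% at 14 or more in RNA-seq and a median of 1.65 RPM per kb.

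The same tiles were read in *bam* testis. There the tiles with S2 H3K27me3 alone had a median H3K27me3 density of 12.9 RPM per kb, and those with S2 H3K36me3 alone 4.83. For H3K36me3 the *bam* medians were 4.69 and 18.8 RPM per kb, respectively. Of the tiles with H3K27me3 alone in S2 cells, 41.8% were marked by H3K27me3 in *bam* testis, against 12.5% of all tiles. Of the tiles with H3K36me3 alone, 68.0% were marked by H3K36me3 there, against 16.3% of all tiles.

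The arms differed in how much of either mark they held. H3K27me3 marked 27.1% of the tiles of 3R, 23.5% of 2R, 22.5% of 2L and 20.0% of 3L, but 12.9% of arm 4 and 5.15% of X. H3K36me3 marked 38.5% of the tiles of arm 4, between 15.5% and 19.6% on the large autosomal arms and 11.5% on X. The observed number of tiles with both over that from the product of shares was lowest on 3R, at 0.0809 (0.0702 to 0.0926), and 0.0906 on 3L (0.0761 to 0.107). It was 0.107 on 2R (0.0929 to 0.123), 0.160 on 2L (0.141 to 0.181), 0.166 on X (0.121 to 0.223) and 0.283 on arm 4 (0.201 to 0.389). On arm 4, which is short and largely heterochromatic, 38 tiles had both marks. The mean density on X was 4.46 RPM per kb for H3K27me3, 5.01 for H3K36me3, 5.49 for H3K4me3 and 6.12 for Pol II, below the 8.84, 8.52, 8.85 and 8.49 on the large autosomal arms. The part of the lower X level in the counts on X was not tested.

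The 896 tiles with both marks formed 601 stretches. Of these, 456 (75.9%) were a single tile, so that 50.9% of the tiles stood alone and 440 lay in stretches of 2 tiles or more. The longest stretch was 11 tiles (5.5 kb). In 191 of the tiles (21.3%) both densities were under 20 RPM per kb, close to the threshold, and in 44 both were at 30 or more. A border position, with H3K27me3 alone within 1 kb on one side and H3K36me3 alone within 1 kb on the other, was held by 202 of the 896 (22.5%, 19.9 to 25.4). Of all tiles, 3438 (1.43%) had such neighbours, and 5.88% of these had both marks (5.14 to 6.71), against 0.372% of all tiles. Within the 202 tiles, the 250 bp on the H3K27me3 side held 53.5% of the H3K27me3 reads (52.2 to 54.8) and 41.3% of the H3K36me3 reads (40.3 to 42.4). The share of H3K27me3 reads there was the larger in 151 of the 202 tiles (74.8%, 68.3 to 80.2). The tiles and their sides were chosen by the marks of their neighbours. A raised share with both marks and a tilt of reads toward each mark's own side are partly set by that choice. These values are therefore a description.

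The 5 stretches with the largest smaller density differed from such borders. At chrX:21784501-21785500 H3K27me3 was 225.2 RPM per kb and H3K36me3 61.7. H3K4me3 was 21.6 and Pol II 91.4 there, and each of the 4 libraries was at least 38.6 times its density in the flanking 5 kb on either side. At chrX:21765501-21766500 the densities were 121.6 and 45.8 RPM per kb for the marks, 24.0 for H3K4me3 and 37.4 for Pol II, all at least 31.3 times the flanks. The single tile chr2R:2236001-2236500 had 49.6 RPM per kb of H3K27me3, 51.1 of H3K36me3, 67.2 of H3K4me3 and 81.0 of Pol II, all at least 17.3 times the flanks. These 3 stretches were therefore raised in every S2 ChIP-seq library. Of the 896 tiles, 45 (5.02%) were at 14 or more in all 4 libraries. In *bam* testis the H3K27me3 density of the same 3 stretches was 3.49, 6.97 and 5.90 RPM per kb. Whether S2 cells carry extra copies of these sequences was not tested.

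At the other 2 stretches the raise was not shared. At chr2L:8428501-8430000 H3K27me3 was 49.6 RPM per kb and 55.2 times its flanks, while H3K36me3 was 60.2 and 4.23 times its flanks. H3K4me3 was 12.8, Pol II 45.7 and RNA-seq 164.9 RPM per kb there. At chr3R:25505001-25506000 the marks had 56.1 and 47.4 RPM per kb, 1.96 and 1.67 times the flanks, with 2.40 of H3K4me3, 10.9 of Pol II and 47.1 of RNA-seq. The latter stretch lies shortly before the second longest H3K27me3 run.

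The 343 H3K27me3 runs covered 2.74 Mb, 2.28% of the tiles and 11.5% of the H3K27me3 tiles. Their median length was 6.5 kb (quartiles 5.5 and 8.5) and the longest was 53 kb. There were 139 on 3R, 74 on 2R, 73 on 2L, 54 on 3L, 3 on X and none on arm 4. H3K36me3 inside the runs was low, with a median over runs of 0.982 RPM per kb (quartiles 0.747 and 2.08, range 0.133 to 28.3). In 255 runs (74.3%, 69.5 to 78.7) it was under 2 RPM per kb, and 309 runs (90.1%, 86.5 to 92.8) held no H3K36me3 tile. Both marks were found in 143 of the 5485 run tiles (2.61%, 2.22 to 3.06), against 1.78% of the 42376 H3K27me3 tiles outside runs (1.66 to 1.91). The 5 runs with most of them held 54 of the 143. The tiles with both were thus not rarer in runs than among scattered H3K27me3 tiles, and they were concentrated in a few runs.

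The longest run was chr3R:24371001-24424000 (53 kb), with 50.8 RPM per kb of H3K27me3 and 3.27 of H3K36me3. H3K4me3 was 2.20, Pol II 6.96 and RNA-seq 0.443 RPM per kb over it. It held 2 tiles with both marks, and its highest H3K36me3 tile had 124.1 RPM per kb. The next, chr3R:25508501-25541500 (33 kb), had the higher H3K27me3 density, 82.6 RPM per kb, with 1.62 of H3K36me3, 2.86 of H3K4me3, 9.12 of Pol II and 0.0416 of RNA-seq. The run chr3R:17252501-17285000 (32.5 kb) had 28.6 RPM per kb of H3K27me3 and 0.602 of H3K36me3, and none of its tiles passed 1.99 in H3K36me3. H3K4me3 was 1.38 and Pol II 2.73 RPM per kb in it, and no RNA-seq read was found.

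On 2R the longest was chr2R:3905001-3932500 (27.5 kb), with 32.8 RPM per kb of H3K27me3, 0.820 of H3K36me3, 0.756 of H3K4me3, 3.53 of Pol II and 0.0150 of RNA-seq. The runs chr2R:7412001-7438500 and chr2R:10328501-10355000 tied at 26.5 kb. The former had 29.4 RPM per kb of H3K27me3, 0.764 of H3K36me3, 2.05 of H3K4me3, 3.61 of Pol II and 0.0207 of RNA-seq. The latter had 33.2, 1.31, 1.84, 5.43 and 0.0104, respectively. These long runs on 2R thus held on average between 1 and 2 reads of H3K36me3 in a tile.

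On 3L the longest run was chr3L:8995001-9017500 (22.5 kb), with 34.6 RPM per kb of H3K27me3, 4.44 of H3K36me3, 1.39 of H3K4me3, 4.66 of Pol II and 0.457 of RNA-seq. On 2L it was chr2L:20770001-20787500 (17.5 kb), with 32.4, 0.967, 1.78, 4.01 and 0.0392 RPM per kb, respectively. On X it was chrX:5851501-5857000 (5.5 kb), with 21.5, 1.33, 1.45, 3.78 and 0.0249 RPM per kb. In *bam* testis the H3K27me3 density of these runs was 27.8, 32.7 and 8.48 RPM per kb. It was 16.2 in the 53-kb run and 20.0 in the 33-kb run, and between 26.0 and 28.6 in the 32.5-kb run and the 3 runs of 2R.

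H3K36me3 reached 14 RPM per kb on average in 11 runs. The 5 highest were chr2R:11762001-11769000 (28.3 RPM per kb, with 32.3 of H3K27me3), chr2R:2186501-2192000 (27.6 and 54.9), chr2L:18667001-18677000 (25.6 and 33.9), chr2R:9762501-9768500 (23.2 and 20.5) and chr2L:5001-11000 (23.2 and 38.9). They held 11 of 14, 9 of 11, 15 of 20, 10 of 12 and 6 of 12 tiles with both marks. H3K4me3 in them was 4.11, 11.9, 3.76, 1.47 and 2.13 RPM per kb, and Pol II was 11.3, 19.5, 11.9, 7.36 and 16.2. RNA-seq was 10.9, 0.823, 1.41, 17.7 and 3.20 RPM per kb. Pol II was above its mean of 4.47 RPM per kb over all run tiles in each of the 5, and H3K4me3 above its mean of 1.57 in all but the run at chr2R:9762501-9768500. Whether both marks sat on the same nucleosomes, alleles or cells there cannot be told apart with these libraries. Nor was the part of copy number or mappability in these levels tested.

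Most run edges were not the end of H3K27me3. By the rule, H3K27me3 was under 14 RPM per kb in the first tile outside each edge, and in 426 of 686 edges (62.1%) that tile had between 10 and 14. In the first tile inside it was between 14 and 20 in 244 edges (35.6%). The second tile outside was marked again at 407 edges (59.3%). The edges were therefore divided, by H3K27me3 alone, after the data were seen. At 448 edges at least 5 of the 10 tiles outside (5 kb) were marked again (resumed), at 164 between 1 and 4 were (partial), and at 74 none was (lasting). The 74 lasting edges belonged to 71 runs, and 3 runs ended in this way on both sides. Tiles without reads counted as unmarked, and the first tile outside was unread at 5 of the 686 edges. In a random 50% of the H3K27me3 reads, 330 runs were found. The first tile outside them had 8.78 RPM per kb in the reads that set the runs and 12.6 in the reads held out, while the second had 17.9 and 17.3. Much of the dip at the first tile was thus fixed by the rule.

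Over all 686 edges H3K36me3 rose from 2.46 RPM per kb in the 10 tiles inside (2.43 to 2.50) to 6.92 in the 10 tiles outside (6.87 to 6.97), a ratio of 2.81 (2.76 to 2.86). The outside level was still below the 8.04 RPM per kb of the average tile. It was higher than the inside level at 384 edges and lower at 285. The median over edges was 0.995 RPM per kb inside and 1.06 outside, so the rise in the pooled density came from a minority of edges. Left edges went from 2.48 to 7.31 RPM per kb and right edges from 2.42 to 6.26.

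The kind of edge separated them. At resumed edges H3K36me3 was 1.55 RPM per kb inside and 1.72 outside, a ratio of 1.11 (1.07 to 1.14), and both medians were 0.929. Partial edges went from 3.86 to 11.1 RPM per kb, a ratio of 2.88 (2.81 to 2.95). At lasting edges H3K36me3 went from 5.40 RPM per kb (5.26 to 5.54) to 26.8 (26.5 to 27.1), a ratio of 4.96 (4.82 to 5.10), with medians of 2.26 and 26.4. It was higher outside at 59 of the 74. H3K27me3 fell there from 29.5 to 2.89 RPM per kb, below the 5.76 of the median tile. That drop is part of how lasting edges were chosen.

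**Figure D3:**
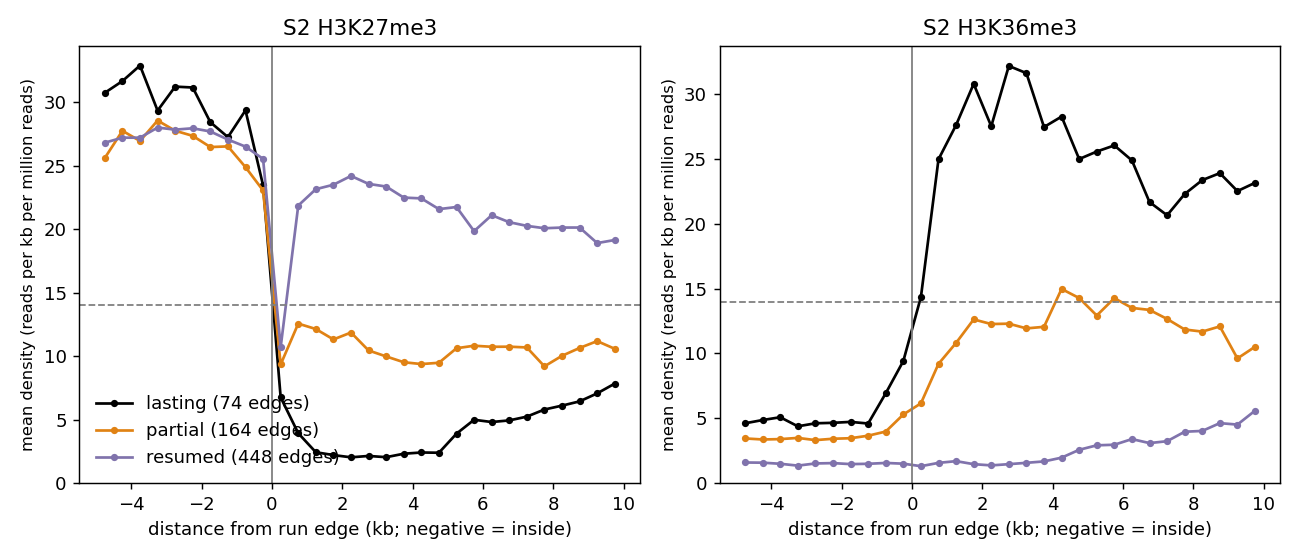
Mean S2 H3K27me3 (left) and H3K36me3 (right) density in reads per kb per 1000000 reads, in 500-bp tiles by distance from the run edge, for lasting, partial and resumed edges; the dashed line is at 14. H3K36me3 climbs outside the lasting edges and stays near 1.5 up to 4 kb outside the resumed ones.

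The other libraries followed the same division. At lasting edges H3K4me3 went from 2.06 to 31.1 RPM per kb, Pol II from 5.87 to 21.3 and RNA-seq from 1.24 to 25.1. At resumed edges they went from 1.45 to 1.60, from 4.09 to 4.59 and from 0.323 to 0.611 RPM per kb. The *bam* testis libraries, which had no part in setting the edges, also changed at the 74 lasting edges. Their H3K27me3 went from 18.5 RPM per kb inside to 5.60 outside and was higher outside at 1 edge. Their H3K36me3 went from 7.19 to 13.7 RPM per kb and was higher outside at 53 edges.

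An edge was said to face H3K36me3 when a stretch of at least 4 adjacent H3K36me3 tiles (2 kb) had a tile within 10 tiles outside it. Of all edges, 117 did (17.1%, 14.4 to 20.1), against 24.1% of the tile sides outside runs. That background counts tiles that lie in an H3K36me3 stretch themselves, which were 14.3% of the tiles outside runs. At run edges the last inside tile lay in such a stretch in only 17 of 686 cases. The share without those tiles was not computed, so how run edges compare with other positions cannot be read from the 24.1%. Resumed edges faced it in 13 of 448 cases (2.90%), partial edges in 56 of 164 (34.1%, 27.3 to 41.7) and lasting edges in 48 of 74 (64.9%, 53.5 to 74.8). This order too is partly fixed by the division, and no matched background is given for resumed and partial edges. For lasting edges the comparison is with tile sides outside runs that also had no H3K27me3 tile within 10 tiles, of which 40.9% had H3K36me3 within reach. Many of those tiles lay inside H3K36me3 themselves, and without them the share was 22.7% of 162051. Among H3K27me3 tiles outside runs, 7402 sides were lasting, and 1975 of these (26.7%) faced H3K36me3. Lasting ends of runs were thus beside H3K36me3 more often than lasting ends of scattered H3K27me3 tiles, by a margin larger than the counting interval. The compared sides were not matched to the run edges by arm or by H3K27me3 level. All lasting run edges lay on 2L, 2R, 3L and 3R. The part of these differences in the margin was not tested. Neighbouring sides share tiles and are not independent, so no test was made.

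The share by arm was 12 of 14 lasting edges on 2L, 10 of 20 on 2R, 9 of 15 on 3L and 17 of 25 on 3R. Beyond 25 Mb of 3R it was 9 of 10, and without that stretch of the arm 39 of 64 (60.9%). The 48 edges belonged to 46 runs and faced 47 different stretches. By length, runs of 5 to 6 kb faced H3K36me3 at 12.7% of all their edges (9.44 to 16.8). The share was 18.8% for runs of 6.5 to 9.5 kb (14.3 to 24.3) and 24.3% for those of 10 kb and more (17.8 to 32.1). Among tile sides outside runs it was 24.1%, but that counts tiles inside H3K36me3 stretches, so the length classes are not read against it.

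Facing edges were chosen for H3K36me3 outside them, so their outside level is given as a description. At the 48 lasting ones the median over edges was 3.25 RPM per kb inside and 37.6 outside, and the outside level ranged from 10.9 to 94.7. At the 26 that did not face it the medians were 1.73 and 1.26 RPM per kb. Of these 26, 20 had no H3K36me3 tile at all among the 10 tiles outside, and 6 had some but no stretch of 4.

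The gap between a run and the stretch it faced can only lie between 0 and 4.5 kb by the definition of facing. Among the 117 facing edges the first tile of the H3K36me3 stretch began at once in 28 and within 0.5 kb in 49 (41.9%, 33.3 to 50.9), with a median of 1.5 kb (0.5 to 2). Among the 48 lasting ones it began at once in 17 and within 0.5 kb in 30 (62.5%, 48.4 to 74.8), with a median of 0.5 kb (0 to 1) and a highest gap of 3.5 kb. The gap is counted in whole tiles of 500 bp. In 17 of all edges the last tile inside the run already lay in an H3K36me3 stretch.

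In the pooled profile of these 48 edges, which were selected for both changes, the marks crossed over within about 1 kb. At single edges the gap was often wider, with an upper quartile of 1.625 kb and a highest value of 3.5 kb. H3K27me3 was 28.2 RPM per kb from 2 to 1 kb inside the edge, 25.7 from 500 to 200 bp inside and 15.6 in the last 200 bp (14.2 to 17.2). It was 7.23 in the first 200 bp outside (6.25 to 8.33), 3.88 from 500 to 1000 bp and 2.44 from 1 to 2 kb outside. H3K36me3 was 4.86 RPM per kb from 2 to 1 kb inside (4.51 to 5.23), 7.12 from 1000 to 500 bp, 11.1 from 500 to 200 bp and 12.5 in the last 200 bp (11.2 to 13.8). It was 11.8 in the first 200 bp outside, 25.6 from 200 to 500 bp, 36.2 from 500 to 1000 bp and 43.6 from 1 to 2 kb outside (42.5 to 44.7). The rise inside the run came from few edges. In the first tile inside, the median H3K36me3 density was 2.99 RPM per kb against a mean of 11.6. The fragments themselves spread each position over about 160 bp, so the edge profile is blurred by about that much.

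**Figure D4:**
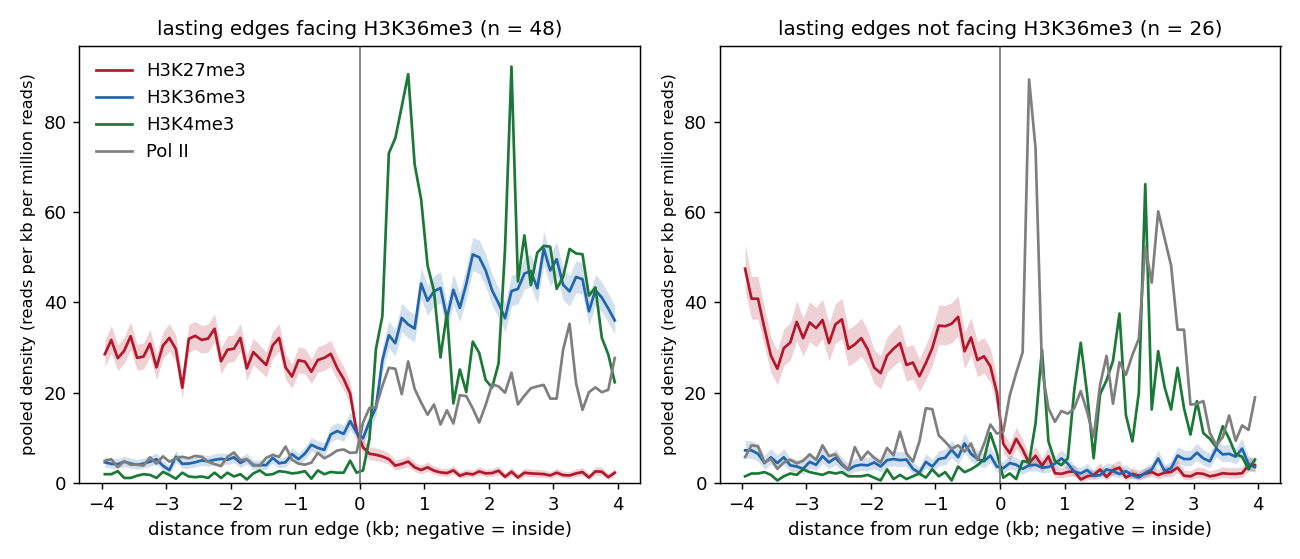
Pooled density in 100-bp bins from 4 kb inside to 4 kb outside the 48 lasting edges that face H3K36me3 (left) and the 26 that do not (right), in reads per kb per 1000000 S2 reads; shading gives exact Poisson 95% intervals for H3K27me3 and H3K36me3. H3K27me3 drops at the edge in both panels and H3K36me3 climbs in the left one, as the edges were selected for, where H3K4me3 has peaks outside the edge.

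H3K4me3 reached 14 RPM per kb between the edge and the second tile of the H3K36me3 stretch at 28 of the 48 edges (58.3%, 44.3 to 71.2). At the other 20 it did not. Over all 117 facing edges, 50 had such H3K4me3 (42.7%, 34.1 to 51.8). The 50 edges had H3K36me3 of 3.58 RPM per kb inside and 31.6 outside, and the other 67 had 7.08 inside and 31.7 outside. H3K36me3 began at once at 6 of the 50 and at 22 of the 67. In the tile just inside the edge it was at 14 or more in 4% of the 50 and 25.4% of the 67. The tiles searched for H3K4me3 are fewer where H3K36me3 begins sooner, so these differences are partly set by the definition and nothing is read from them.

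The 5 edges with the largest rise of H3K36me3 lay on 3L and on distal 3R. At the left edge of chr3L:658001-667000 H3K36me3 went from 25.0 RPM per kb in the 10 tiles inside to 149.2 in the 10 outside, and H3K27me3 from 50.9 to 6.69. The run held both marks well inside this edge. From the seventh to the third tile inside H3K36me3 was between 16.6 and 25.2 RPM per kb and H3K27me3 between 65.5 and 85.6. In the last 2 tiles inside H3K36me3 was 17.9 and 108.8 RPM per kb, and H3K27me3 15.1 and 23.0. The first tile outside had 240.2 RPM per kb of H3K36me3 and 10.1 of H3K27me3. H3K4me3 peaked at 444.8 RPM per kb in the seventh tile outside, and RNA-seq was 86.2 RPM per kb over the 10 tiles outside against 1.89 inside. The 7 tiles next to the edge inside were therefore tiles with both marks, beside a transcribed region.

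At the left edge of chr3R:25642501-25653000, which is lasting, H3K36me3 went from 3.25 to 94.7 RPM per kb and H3K27me3 from 41.0 to 3.81. The 2 tiles next to the edge had 3.32 RPM per kb of H3K36me3 and 23.0 of H3K27me3 inside, and 20.6 and 7.20 outside. H3K4me3 was 232.0 and 412.8 RPM per kb in the first 2 tiles outside and 11.2 in the next. H3K4me3 and H3K36me3 thus both passed the threshold in the first tile without H3K27me3. RNA-seq was 0.137 RPM per kb inside and 38.4 outside.

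The run chr3R:25552001-25560000 had a large rise at both ends. At its right edge, a lasting one, H3K36me3 went from 6.97 to 91.8 RPM per kb and H3K27me3 from 67.3 to 4.10. In the last tile inside H3K36me3 was already 20.6. The last 2 of the 10 tiles outside had no read of either mark, and the very last had none in any S2 library. Both count as unmarked in these values. H3K4me3 reached its highest value, 468.8 RPM per kb, in the fifth tile outside, beyond the H3K36me3 start. At its left edge H3K36me3 went from 5.57 to 73.8 RPM per kb. That edge and the right edge of chr3R:25542001-25548500, where H3K36me3 went from 3.19 to 74.7 RPM per kb, look onto the same 3.5 kb. In it H3K36me3 reached 181.8 RPM per kb, H3K4me3 691.2 and Pol II 646.3, and H3K27me3 was between 4.32 and 12.2. On both sides H3K27me3 was at 34.5 RPM per kb or more in the first tile of the runs. This is an island of 7 tiles without H3K27me3 between 2 runs.

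**Figure D5:**
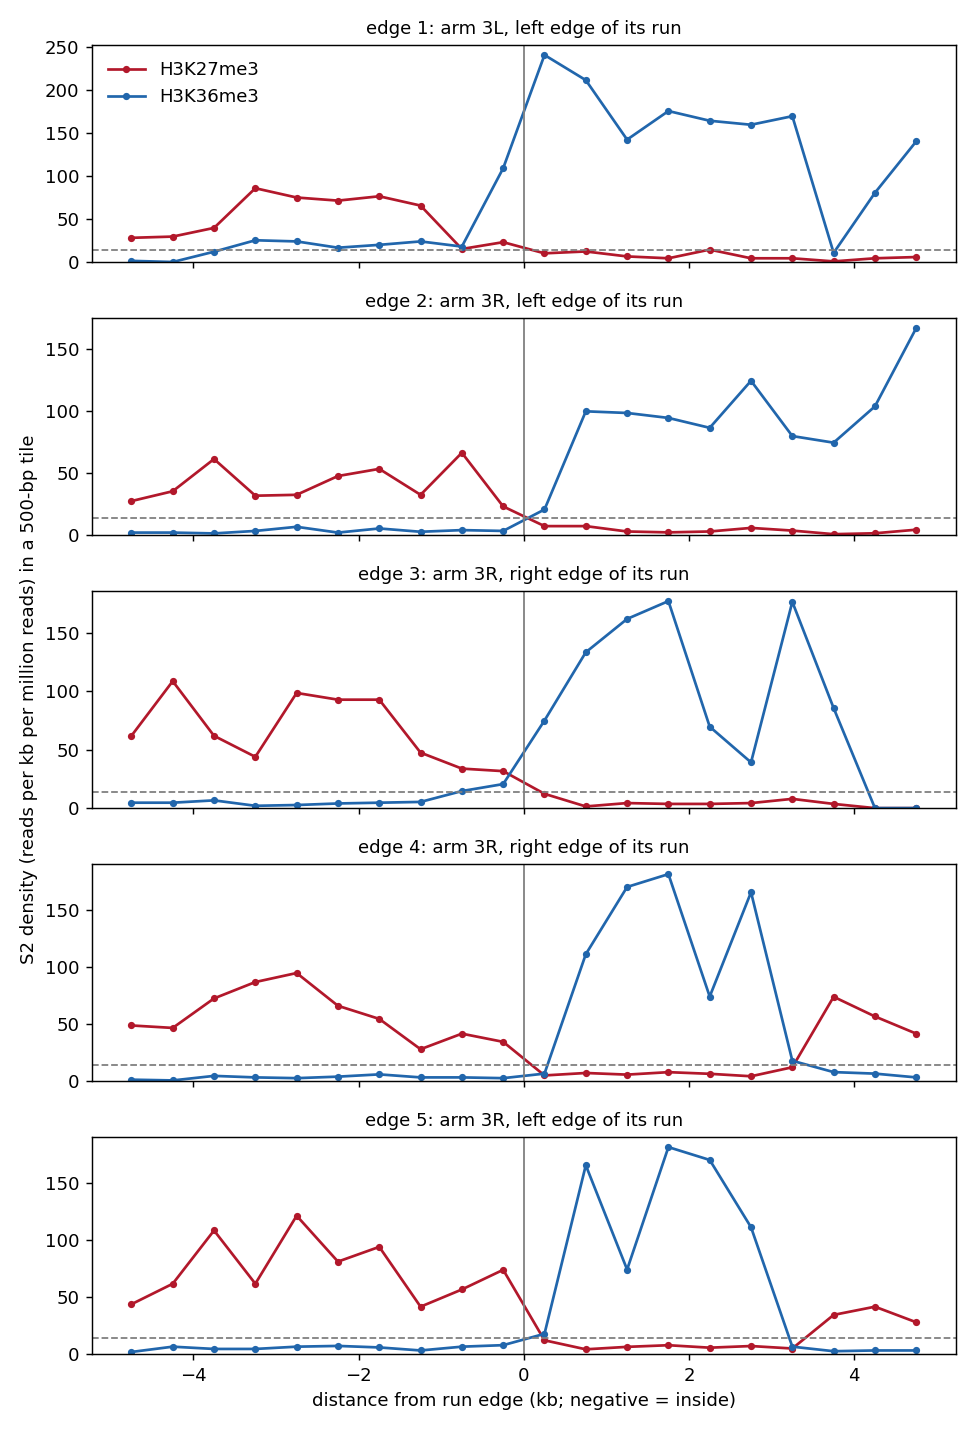
S2 H3K27me3 and H3K36me3 density (reads per kb per 1000000 reads) in the 10 tiles of 500 bp inside and outside each of the 5 edges with the largest difference of H3K36me3; the dashed line is at 14. Edges 4 and 5 face the same island from opposite sides, and in edge 1 H3K36me3 is at 108.8 in the tile before the edge.

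Densities on distal 3R were high in several libraries. In the runs chr3R:25542001-25548500 and chr3R:25552001-25560000, H3K27me3 was 55.1 and 71.5 RPM per kb, H3K4me3 5.29 and 5.10, and Pol II 16.6 and 14.2, against means of 28.8, 1.57 and 4.47 over all run tiles. In *bam* testis the H3K27me3 density at the 2 edges of the latter run was 8.42 and 9.76 RPM per kb inside. The part of copy number in these levels was not tested.

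Seen from H3K36me3, the picture was similar. There were 1211 runs of at least 10 adjacent H3K36me3 tiles, 8.95 Mb in all, with a median length of 6.5 kb and a highest of 28 kb. Their median H3K27me3 density was 1.37 RPM per kb (quartiles 1.04 and 2.04), about 2 reads in a tile. In 1101 of them (90.9%, 89.2 to 92.4) no tile was marked by H3K27me3, and 6 had 14 RPM per kb or more of it. Across their 2422 edges H3K27me3 went from 1.91 RPM per kb inside (1.89 to 1.93) to 4.99 outside (4.96 to 5.01), a ratio of 2.61 (2.58 to 2.64), and was higher outside at 1520 edges. An H3K27me3 stretch of at least 4 tiles lay within 10 tiles of 261 of these edges (10.8%, 9.60 to 12.1), against 17.1% of tile sides outside H3K36me3 runs. That background includes tiles that lie in H3K27me3 stretches themselves, so these edges are not read against it. Many of these edges were breaks within H3K36me3, as 30.3% of the second tiles outside and between 38.1% and 42.3% of the tiles from there to 5 kb out were marked by it again. H3K27me3 marked 8.26% of the second and 13.4% of the tiles 5 kb out. In the profile 10 kb out the mean H3K27me3 was still below the 7.98 RPM per kb of the average tile. The first tile outside had a mean of 2.66 RPM per kb of H3K27me3 and the tile 5 kb out 5.56.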

How the data were processed

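The ChIP-seq files of the authors hold reads that ELAND placed at a single dm3 position with no more than 2 mismatches. The aligner of the RNA-seq reads was not given in the sources used here. Each line of the deposited files gives the position and strand of 1 read, without normalization, input correction or a limit on copies. Following the study's methods, reads with the same 5′ position and strand were limited to 3. ChIP-seq 5′ ends were moved 80 bp toward the fragment centre, and RNA-seq reads were placed by position. Read counts in 500-bp tiles from position 1 of each arm were divided by the tile length in kb and by the kept reads, times 1000000. S2 libraries held 1250028 (H3K4me3) to 3013863 (H3K36me3) ChIP-seq reads and 7289715 RNA-seq reads, and *bam* libraries 1342183 to 3729366.

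A mark's tile was at 14 or more RPM per kb. Shares have 95% Wilson intervals, densities exact Poisson intervals and ratios exact conditional intervals, which cover counting error only because the reads carry no molecular identifiers. In densities pooled over edges a tile entered once per side, and 937 of the 6405 outside tiles lay in a neighbouring run. Named regions were the 5 longest H3K27me3 runs and the longest of each arm, the 5 stretches with both marks in which the smaller density was largest, the 5 runs with most H3K36me3, and the 5 edges with the largest difference of H3K36me3 between outside and inside. The comparison, its thresholds and these rules were chosen with earlier results of these data known, and the classes of edges were set after seeing the data. Scripts were tested on simulated reads with planted domains far above the threshold, a setting that does not test edges close to it. No dm3 genome or annotation was used, so no gene is named and no sequence shown. Python 3.11.15, numpy 2.4.6, scipy 1.17.1, pandas 2.3.3 and matplotlib 3.10.9 were used. Alternatives were no shift, 1 copy of a read, thresholds at each library's own depth, thinning, other tiles, leaving out unread tiles, other run definitions, runs set on 50% of the H3K27me3 reads, lasting edges alone and leaving out 3R.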

Additional observations from a re-analysis of the deposited data

How the results depend on the processing

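For 7 quantities (those named here) alternatives were run. In all of them the observed over expected ratio stayed below 1, and both density ratios across run edges stayed above 1. The counts, the share of facing edges and the gap have no direction to keep. The rank correlation, the arms, the border tiles, the classes of edges and the values of the other libraries were not recomputed, nor was the background of 24.1% for facing edges. Of 85 values recomputed, 48 stayed within the counting interval or within 1.5 times a count, and 37 moved further, where the cause was not tested unless the alternative itself changes what is counted. The tiles with both marks numbered 487 at the stricter depth-based threshold (Poisson p under 0.001 for the library's reads) and 410 with tiles of 1000 bp. The observed over expected ratio was 0.132 with 1 copy of a read, 0.126 at the looser depth-based threshold (p under 0.05), 0.102 at p under 0.001, 0.135 with both libraries thinned to the shallowest, 0.101 with tiles of 1000 bp and 0.133 without 3R. The H3K27me3 runs numbered 523 at p under 0.05, 179 at p under 0.001, 942 with tiles of 1000 bp, 68 with at least 20 tiles, 1843 with at least 5 tiles, 1067 with gaps of 1 tile allowed and 204 without 3R.

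The H3K36me3 ratio across run edges was 2.97 without the shift, 2.48 with 1 copy of a read, 3.14 at p under 0.001, 2.89 with tiles 250 bp later, 3.10 with tiles of 1000 bp, 3.49 for runs of at least 20 tiles, 2.45 for at least 5, 3.27 with gaps allowed, 4.96 at lasting edges alone and 2.47 without 3R. The share of edges facing H3K36me3 was 24.3% for runs of at least 20 tiles, 14.0% for at least 5 and 64.9% at lasting edges alone. The H3K27me3 ratio across H3K36me3 run edges was 2.65 without the shift, 2.40 with 1 copy, 2.57 thinned, 2.96 with tiles of 1000 bp, 2.66 both with unread tiles left out and for runs of at least 20 tiles, 2.51 for at least 5, 2.93 with gaps allowed and 2.47 without 3R. The median gap stayed between 0.5 and 1.5 kb. Lasting edges alone and the arms without 3R were alternatives chosen after seeing the data. No paired analysis was possible because each target has 1 library. At this depth 1 read in a tile is 0.720 RPM per kb of H3K27me3 and 0.664 of H3K36me3, so medians over tiles move in steps of that size.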
